A study of Homo sapiens with 6 samples.

Results

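The genes described here encode the nuclear pore complex and the soluble machinery that carries proteins and RNA through it. They were 37 genes chosen by name, 27 of them structural nucleoporins and associated pore proteins, 6 importins and exportins, and 4 components of the Ran GTPase cycle. All 37 names were found among the 63009 genes that have a single value per library in the deposited table of FPKM (the fragments assigned to a gene, per transcript length and per size of the library), and where a name occurred on more than 1 row (KPNA2 and POM121) the row with the higher mean was used, the other being at 0 in every library. RNA-seq was performed on 6 libraries of ERRAS cells, which are early passage IMR90 primary human lung fibroblasts that carry, from a retrovirus, activated H-RasV12 joined to the ligand-binding domain of the estrogen receptor. Control mitotic cells (3 libraries) carried the same construct but were left uninduced, and Ras-induced mitotic cells (3 libraries) were induced for 4 days with 100 nM tamoxifen according to the sample labels, the methods giving the dose of 4OHT in ng/ml instead. Cells of both groups were blocked with 1 μM DME, an inhibitor of the mitotic kinesin Eg5, and the detached mitotic cells were collected, so that every library reports poly(A) RNA of drug-arrested mitosis. The comparison asks how Ras activation altered the transcripts of mitotic cells before senescence.

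The nuclear pore is a large assembly of many kinds of nucleoporin, built from stacked rings around a channel lined with phenylalanine-glycine (FG) repeats. Importins and exportins bind cargo and cross the channel, and the gradient of Ran bound to GTP, made by its exchange factor RCC1 on chromatin and ended by RANGAP1 in the cytoplasm, sets the direction of transport. When vertebrate cells enter mitosis the pores are dismantled, the same Ran gradient then guides spindle assembly around chromosomes, several nucleoporins move to kinetochores, and the pores are rebuilt as nuclei reform.

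The libraries were comparable in depth as far as the table shows it. FPKM holds no read counts, but the steps between low values gave depths of 0.951 and 1.17 for control libraries 2 and 3 and 1.13, 0.848 and 0.973 for the Ras-induced libraries, relative to control library 1. HRAS, whose reads can come from the construct or from the endogenous gene, measured 1164 ± 20.3 FPKM in control and 1586 ± 226.5 FPKM in Ras-induced cells (SD, n = 3 each, limma adjusted p = 0.0431). Of 5 fibroblast markers, all at 47.5 FPKM or more in every library, COL1A2 and THY1 were lower after induction, COL1A1 had means of 1345 and 550.0 FPKM without passing the test (limma adjusted p = 0.0501), VIM and PDGFRB overlapped between the groups, and the summed level of the 5 was 4430 to 4965 FPKM in control and 2951 to 4074 FPKM in Ras-induced libraries. Of 7 markers of epithelial, blood, endothelial and liver cells, none reached a mean of 1 FPKM over both groups of libraries, so none was tested, and CD3E and PECAM1 were at 0 throughout. The epithelial marker EPCAM was the highest, with 1.05, 0.880 and 1.80 FPKM in control and 0.272, 0.167 and 0.424 FPKM in Ras-induced libraries, which do not overlap. Its part in the differences below was not tested. Because the libraries are bulk RNA, fewer cells expressing a gene and less RNA of it per cell cannot be told apart. Nothing in the labels ties a library to a separate culture, although the methods speak of independent repeats, so p-values measure the spread between these libraries.

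The transport genes were abundant in mitotic fibroblasts. Of the 37, 36 averaged 1 FPKM or more and were tested, and their median was 44.6 FPKM against 13.0 FPKM for all 13993 tested genes. The exception was NUP210, a membrane-anchored pore glycoprotein known to be restricted to some cell types, which measured 0.0211, 0.00935 and 0.00759 FPKM in control and 0, 0 and 0.00914 FPKM in Ras-induced cells. No difference can be drawn from levels that low. RAN itself was the most abundant, with 583, 614 and 570.1 FPKM in control and 557, 709 and 651 FPKM in Ras-induced libraries. It was followed by its partner RANBP1, which helps release Ran from transport receptors, and by the import receptor KPNB1 (importin beta), both with a mean of 214 FPKM over all libraries and not separable from each other. RANGAP1 (171 FPKM) and SEC13 (164 FPKM), whose ranges overlapped, came next, followed by the export receptors XPO1 and CSE1L (both 102 FPKM). Among the tested genes the lowest was NUP153, an FG nucleoporin of the nuclear basket, with 5.56 FPKM.

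**Figure D1:**
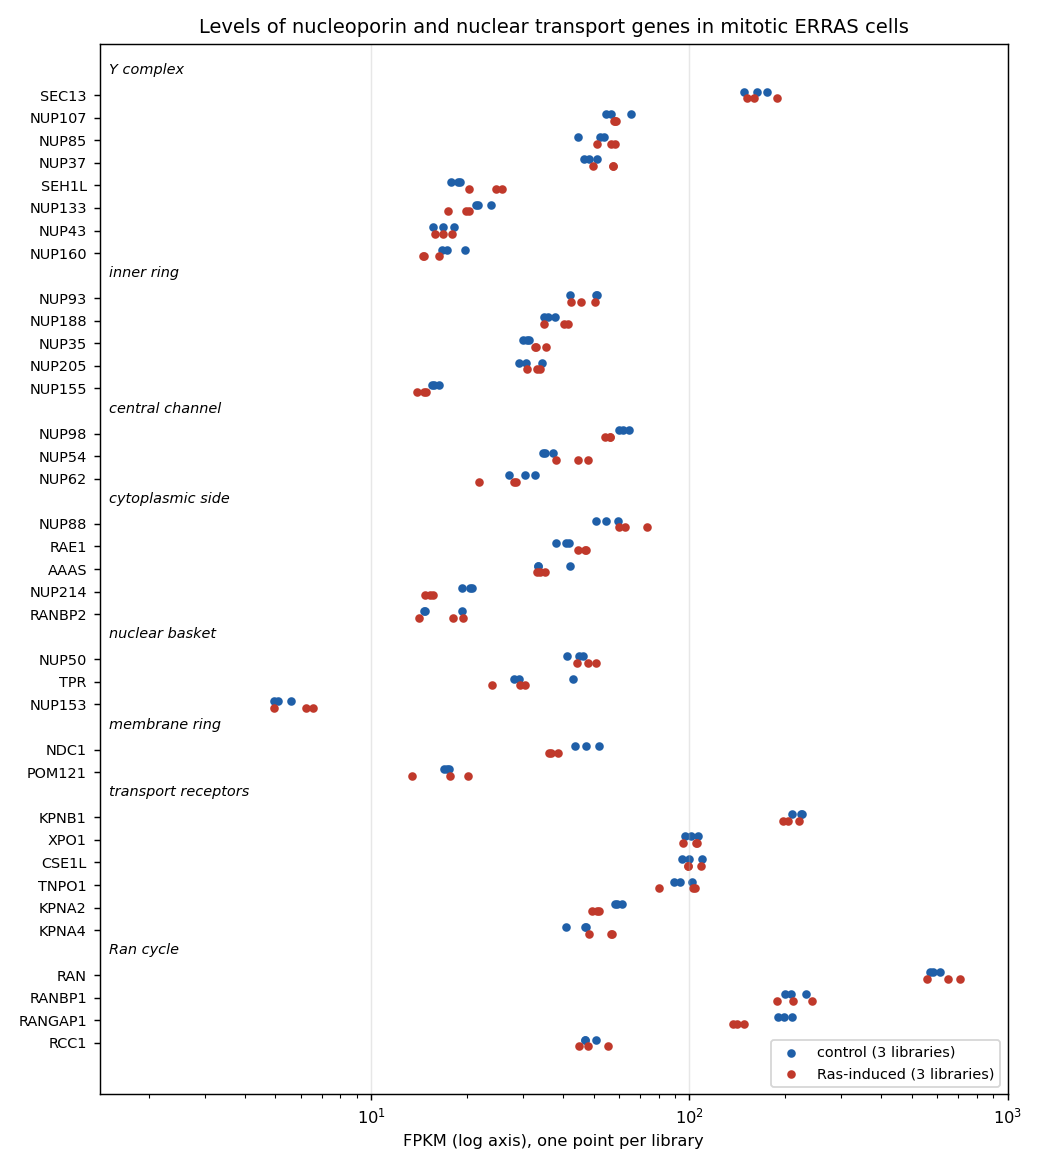
FPKM of each gene on a log axis, 1 point per library, with control mitotic cells in blue and Ras-induced mitotic cells in red, grouped by place in the pore or in the transport cycle. NUP210 lies under the axis range. Of the genes drawn RAN stands highest and NUP153 lowest, and 8 genes, among them RANGAP1, NUP214 and NDC1, show every red point clear of the blue ones on the lower side.

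Ras induction changed few of these transcripts. RANGAP1, NUP214 and NDC1 were lower and no other member passed the test, which makes 3 of 36 or 8.33% (limma on log2(FPKM + 1), Benjamini-Hochberg adjusted p at or under 0.05 over all 13993 tested genes). The background over the whole table was 16.7% of genes altered, made up of 11.0% higher and 5.67% lower. A further 5 genes had an unadjusted p under 0.05 without passing the adjustment. The matching share of all tested genes was not taken, so nothing is read from this count. The median log2 fold change of the 36 genes was 0.01 and that of all tested genes 0.10, and 19 of the 36 had a positive and 17 a negative value, the positive ones becoming 11 after either rescaling of the libraries. The median absolute log2 fold change was 0.13 for these genes and 0.24 for all tested genes. No member reached an absolute log2 fold change of 1, which 7.10% of all tested genes did. The SD over control libraries had a median of 6.31% of the mean for these genes and 12.1% for all tested genes. The part of this spread, and of level, in the smaller changes of the members was not tested. The values of the control and Ras-induced libraries did not overlap for 14 of the 36 genes, 6 with every Ras-induced value above and 8 with every one below, where 39.9% of all tested genes were separated, 27.1% above and 12.8% below. The calls moved with the scaling of the libraries. After quantile normalization or scaling to a common upper quartile 5 members were lower, the 3 above with KPNA2 and NUP98, while the median of all tested genes moved from 0.10 to 0.01 and 0.00. Over all tested genes 1543 were higher and 793 lower as deposited, which became 1044 and 1109 with quantile normalization and 921 and 1101 with upper-quartile scaling.

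**Figure D2:**
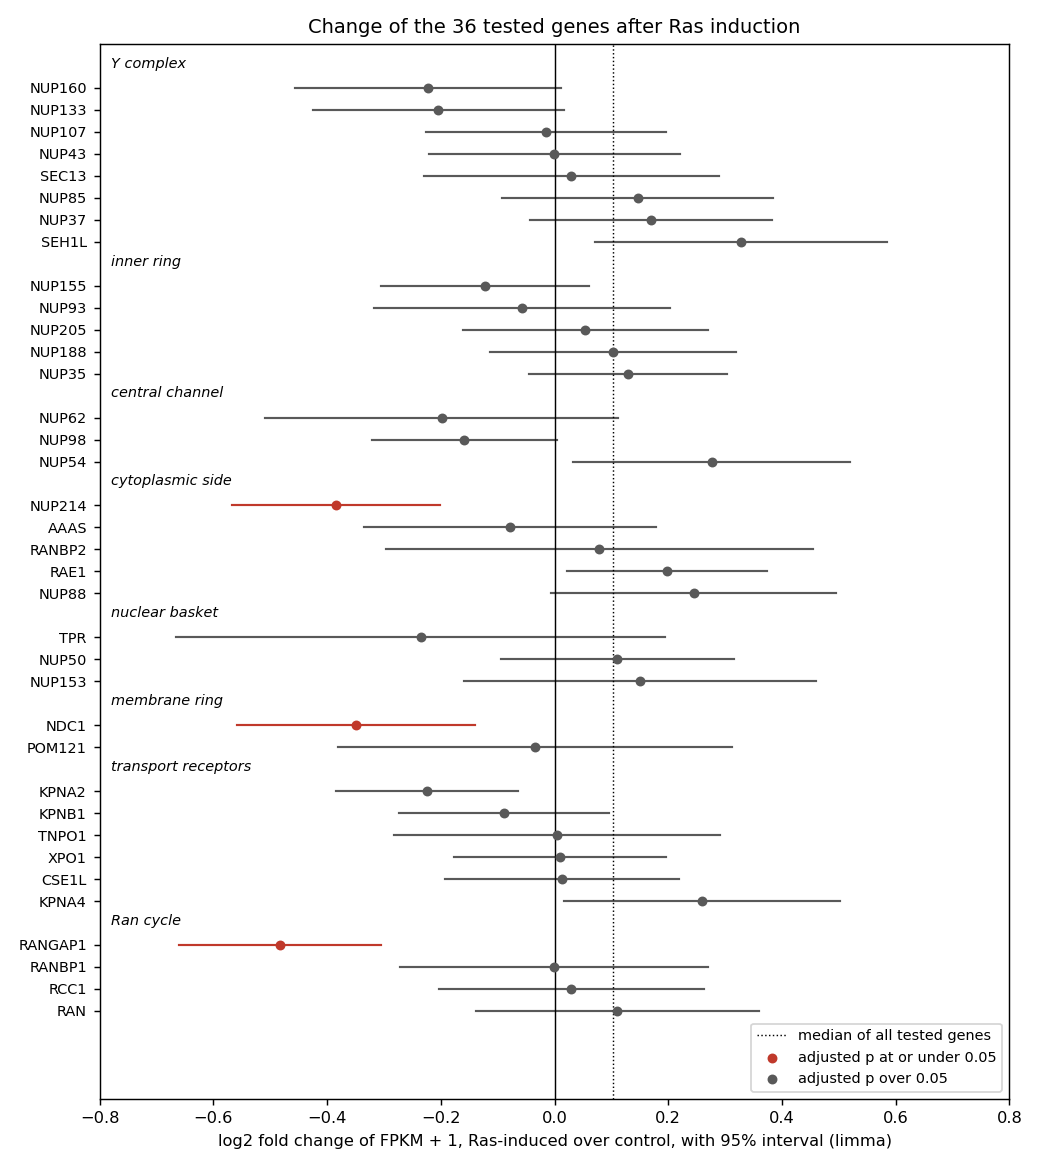
Log2 fold change of FPKM + 1 in Ras-induced over control mitotic cells for the 36 tested genes, with the 95% interval from limma as a line. Red marks the 3 genes with an adjusted p at or under 0.05, the solid line is no change and the dotted line the median of all tested genes at 0.10. Most intervals span 0, and RANGAP1 lies farthest from it at -0.48.

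The largest change was that of RANGAP1, the GTPase-activating protein that makes Ran hydrolyse its GTP and that, once joined to SUMO, sits with RANBP2 at the cytoplasmic face of the pore and at kinetochores. It measured 198, 191 and 210.2 FPKM in control libraries and 137, 149 and 142 FPKM in Ras-induced libraries. Every Ras-induced value lay under the lowest control value. The mean fell by 28.6%, from 199.5 ± 9.97 to 142 ± 6.13 FPKM (SD, n = 3), which is -0.48 on the log2 scale (standard error, SE, 0.07, with limma adjusted p = 0.00982). The call held under all 14 alternatives to the fit, and at a stricter threshold of 0.01, with adjusted p in the 14 from 0.0045 to 0.0447. RANGAP1 (ENSG00000100401) lies on the minus strand of chromosome 22 of GRCh37 from 41640783 to 41682191, and no exon of another annotated gene overlaps its main transcript of 16 exons.

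NUP214, an FG nucleoporin of the cytoplasmic filaments that takes part in mRNA export and binds XPO1, measured 19.3, 20.7 and 20.5 FPKM in control and 15.3, 15.6 and 14.7 FPKM in Ras-induced libraries. The groups did not overlap, and the spread within each was under 1 FPKM (SD of 0.761 and 0.428). The mean fell by 24.5%, a log2 fold change of -0.38 (SE 0.08, limma adjusted p = 0.0206), and the call was lost when control library 1 or 2, or Ras-induced library 1 or 3, was left out (adjusted p from 0.0535 to 0.0852). NUP214 (ENSG00000126883) lies on the plus strand of chromosome 9 from 134000960 to 134110050. Exons of 3 long noncoding RNAs of the opposite strand cover 13.5% of its main transcript, and the library kit does not mark strand.

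NDC1, a membrane protein that anchors the pore in the envelope, measured 47.5, 43.8 and 52.1 FPKM in control and 36.8, 36.2 and 38.7 FPKM in Ras-induced libraries. The highest Ras-induced library was under the lowest control library. Its mean fell by 22.1% from 47.8 ± 4.15 to 37.2 ± 1.30 FPKM (SD, n = 3), which is -0.35 on the log2 scale (SE 0.09, limma adjusted p = 0.0404). This call was the least secure of the 3, being lost without a filter (adjusted p = 0.0662 from limma), without a trend (0.0629) and in each of the 6 fits that left out a library (adjusted p from 0.0592 to 0.107), although the sign was negative in all of them. NDC1 (ENSG00000058804) lies on the minus strand of chromosome 1 from 54231151 to 54304136.

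**Figure D3:**
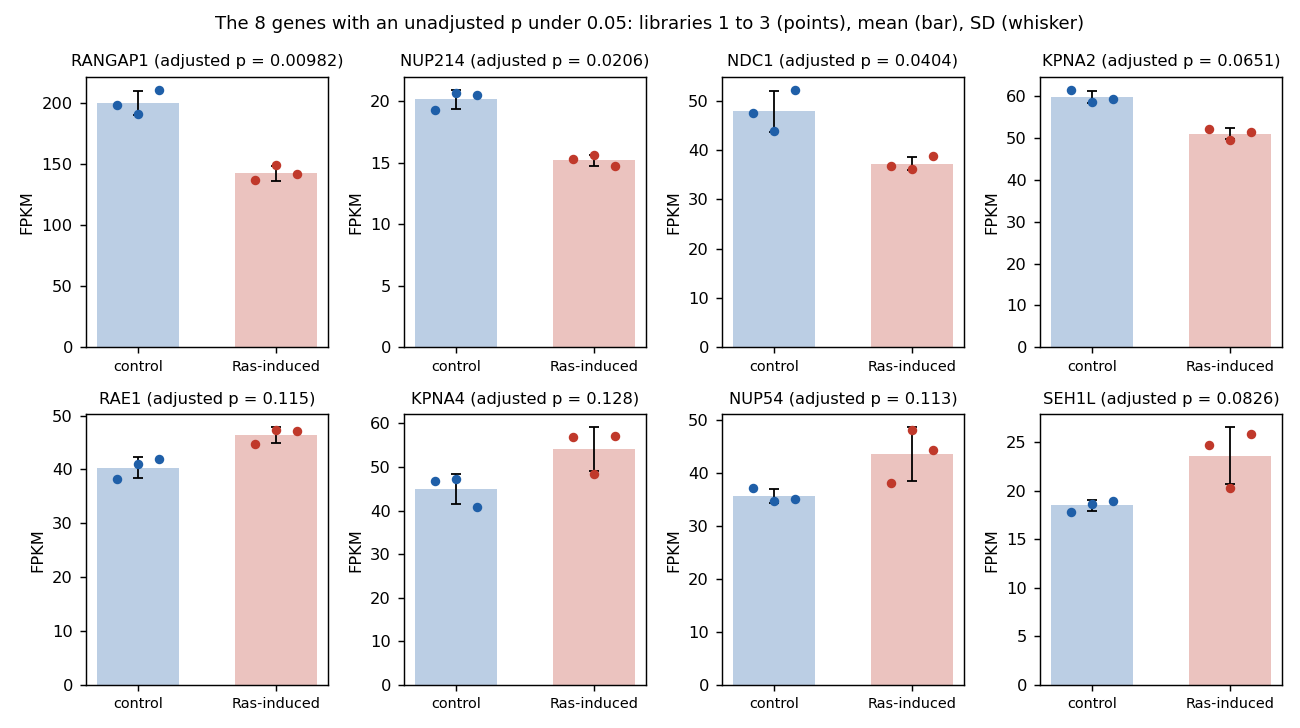
FPKM in control (blue) and Ras-induced (red) mitotic cells of the 8 genes with an unadjusted p under 0.05. Points are libraries 1 to 3 from left to right, bars are means, whiskers are SD, every axis starts at 0 and each title gives the adjusted p. The genes were chosen by that p, so nothing is read from the separate points in all 8 panels. Of all tested genes 39.9% were separated. The adjusted p passes 0.05 only for RANGAP1, NUP214 and NDC1.

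The promoters of the 3 altered genes are shown with that of KPNA2, which had the next smallest p, because these members lead the lower side of the set. The sequences are RefSeq windows from 250 bases before to 50 bases after the transcription start on GRCh38.p14, 5′ to 3′ on the strand of the gene, in which the capitals mark the letters of 4 short motifs searched on both strands. The motifs were TTTGAA (the core of the cell cycle homology region, CHR), the CCAAT box, the ETS core CCGGAAG and the E2F core GCGGGAA, and no motif contains another. For a gene with several windows, the one leading into its main transcript is given.
RANGAP1, chr22:41286138-41286437, minus strand: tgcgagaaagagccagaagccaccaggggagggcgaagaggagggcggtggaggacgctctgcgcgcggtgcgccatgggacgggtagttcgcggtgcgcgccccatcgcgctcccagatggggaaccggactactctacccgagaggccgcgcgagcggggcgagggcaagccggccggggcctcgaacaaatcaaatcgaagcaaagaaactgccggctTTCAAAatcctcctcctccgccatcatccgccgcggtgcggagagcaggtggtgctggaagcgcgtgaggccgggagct
NUP214, chr9:131125336-131125635, plus strand: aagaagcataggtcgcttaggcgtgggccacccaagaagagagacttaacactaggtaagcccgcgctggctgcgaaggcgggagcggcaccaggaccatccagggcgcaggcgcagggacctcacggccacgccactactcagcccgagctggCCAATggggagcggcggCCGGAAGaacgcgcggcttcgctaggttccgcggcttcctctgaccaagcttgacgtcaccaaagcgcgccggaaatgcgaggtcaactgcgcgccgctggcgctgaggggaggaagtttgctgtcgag
NDC1, chr1:53838247-53838546, minus strand: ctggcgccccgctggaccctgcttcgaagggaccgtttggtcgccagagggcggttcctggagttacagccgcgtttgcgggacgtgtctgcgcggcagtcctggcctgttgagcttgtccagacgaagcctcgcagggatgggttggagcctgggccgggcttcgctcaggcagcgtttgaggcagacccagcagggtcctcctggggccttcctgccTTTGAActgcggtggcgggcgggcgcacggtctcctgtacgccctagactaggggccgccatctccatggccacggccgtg
KPNA2, chr17:68035485-68035784, plus strand: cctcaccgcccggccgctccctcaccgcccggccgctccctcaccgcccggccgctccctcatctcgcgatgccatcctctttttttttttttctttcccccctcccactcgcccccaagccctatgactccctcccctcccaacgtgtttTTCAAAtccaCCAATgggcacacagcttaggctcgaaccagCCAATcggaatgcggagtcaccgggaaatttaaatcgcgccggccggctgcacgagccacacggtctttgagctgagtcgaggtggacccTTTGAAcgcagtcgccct

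The RANGAP1 window holds the CHR letters in reverse (TTCAAA) beginning 29 bases before the start, and that of NDC1 holds them in the forward sense (TTTGAA) beginning 31 bases before it. The E2F core was found only in the other RefSeq window of RANGAP1, which is not shown. KPNA2 has TTTGAA 33 bases into the transcript, TTCAAA 99 bases before the start and CCAAT at 89 and 58 bases before it. NUP214 has a CCAAT box 96 bases and an ETS core 79 bases before the start and no CHR letters. Windows were given for 33 of the 37 genes, 45 windows in all. The CHR letters occurred in 31.1% of these and in 15.2% of all 35116 windows, CCAAT in 37.8% and 34.6%, the ETS core in 28.9% and 10.3%, and the E2F core in 17.8% and 6.55%. The CHR letters were found for 12 members. Besides RANGAP1, NDC1 and KPNA2 they were CSE1L, NUP153, NUP205, NUP35, NUP37, NUP50, NUP93, NUP98 and RAN, none of them called in the deposited values. These are counts of letters, with no test and no measure of binding.

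The remaining components of the Ran cycle measured closer to their control levels. RCC1, the chromatin-bound exchange factor that loads Ran with GTP, had 46.9, 51.0 and 46.9 FPKM in control and 45.1, 55.4 and 47.9 FPKM in Ras-induced libraries, with a log2 fold change of 0.03 and a 95% interval from -0.20 to 0.26. RANBP1 had 209, 232 and 200.0 FPKM against 188, 242 and 212 FPKM, with a log2 fold change of 0.00 (SE 0.11, interval from -0.27 to 0.27, limma adjusted p = 0.995). RAN, at the levels given above, had a log2 fold change of 0.11 (SE 0.10, interval from -0.14 to 0.36, limma adjusted p = 0.491). The values of all 3 genes overlapped between the groups. The ratio of RANGAP1 to RCC1 FPKM within a library, which no scaling of a library can change, was 4.22, 3.74 and 4.49 in control and 3.04, 2.69 and 2.96 in Ras-induced cells. This pair was picked after the values were known, and RANGAP1 alone already separated the groups. RCC1 shares exon bases with the host transcript SNHG3 on its own strand (5.92% of its main transcript), and 26.8% of the RANBP1 transcript overlaps TRMT2A on the opposite strand.

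None of the 6 transport receptors was altered, and the 2 importin alpha paralogs had values of opposite sign. KPNA2, an importin alpha that recognises classical nuclear localization signals and rises in proliferating cells, measured 61.3, 58.5 and 59.3 FPKM in control and 52.0, 49.5 and 51.4 FPKM in Ras-induced libraries. The groups were separate, with a log2 fold change of -0.22 (SE 0.07, limma adjusted p = 0.0651) that did not pass the threshold in the deposited values. It passed after quantile normalization (-0.32, limma adjusted p = 0.0229) and upper-quartile scaling (-0.33, limma adjusted p = 0.0222). KPNA4, its paralog of another subfamily, measured 46.8, 47.2 and 40.9 FPKM and then 56.8, 48.3 and 57.2 FPKM, each Ras-induced value above the controls but not altered (log2 fold change 0.26, SE 0.10, limma adjusted p = 0.128). The ratio of KPNA2 to KPNA4 was 1.31, 1.24 and 1.45 in control and 0.915, 1.02 and 0.899 in Ras-induced cells. Since KPNA2 lay wholly under and KPNA4 wholly above the controls, this ratio had to separate.

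The groups overlapped for the other receptors. KPNB1, the importin beta that carries importin alpha and its cargo through the pore, measured 211, 226 and 224 FPKM in control and 196, 204 and 222 FPKM in Ras-induced libraries, with a log2 fold change of -0.09 (SE 0.08, interval from -0.27 to 0.10, limma adjusted p = 0.454). XPO1, the main exportin for leucine-rich export signals, had 96.8, 101 and 106 FPKM against 105, 95.3 and 106 FPKM, with a log2 fold change of 0.01 (SE 0.08, interval from -0.18 to 0.20, limma adjusted p = 0.944). The interval of CSE1L, which returns importin alpha to the cytoplasm, ran from -0.19 to 0.22, and that of TNPO1, which imports hnRNP proteins, from -0.28 to 0.29. These intervals give the range of changes that the spread between the libraries leaves possible.

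In the Y complex, the outer ring scaffold that also goes to kinetochores in mitosis, none of the 8 genes was altered. Their levels, which FPKM sets per length, spanned a wide range. NUP107, NUP85 and NUP37 had means over all libraries of 58.7, 52.9 and 51.9 FPKM, whereas SEH1L, NUP133, NUP43 and NUP160 had 21.0, 20.7, 16.9 and 16.5 FPKM, and SEC13, which also serves the COPII coat, had 163, 176 and 149 FPKM in control and 159, 188 and 152 FPKM in Ras-induced libraries (log2 fold change 0.03, SE 0.11, limma adjusted p = 0.875). SEH1L measured 17.8, 18.7 and 19.0 FPKM in control and 24.7, 20.3 and 25.8 FPKM in Ras-induced libraries, all above the controls, with a log2 fold change of 0.33 (SE 0.11, limma adjusted p = 0.0826). It passed the threshold only without Ras-induced library 2 (0.43, limma adjusted p = 0.0354). NUP160 and NUP133 had every Ras-induced value under the controls and log2 fold changes of -0.22 and -0.20 (adjusted p = 0.166 and 0.174 from limma). NUP37 and NUP85 had 0.17 and 0.15, and NUP107 and NUP43 had -0.01 and 0.00.

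The inner ring, which joins the scaffold to the membrane and the channel, had no altered gene among 5. The means in control and Ras-induced cells were 48.1 and 46.2 FPKM for NUP93, 36.2 and 39.0 FPKM for NUP188, 31.4 and 32.6 FPKM for NUP205, 30.7 and 33.7 FPKM for NUP35, and 15.9 and 14.5 FPKM for NUP155. Log2 fold changes ran from -0.12 for NUP155 to 0.13 for NUP35. Both of these small differences separated the groups without passing the test, with adjusted p of 0.311 and 0.263 from limma.

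The central channel was mixed. NUP62 and NUP54, which bind each other and fill the channel with FG repeats, had log2 fold changes of opposite sign. NUP62 measured 27.0, 30.4 and 32.8 FPKM in control and 28.6, 21.8 and 28.1 FPKM in Ras-induced libraries (-0.20, limma adjusted p = 0.333), and its groups overlapped. NUP54 measured 37.2, 34.7 and 35.1 FPKM and then 38.1, 48.2 and 44.5 FPKM (0.28, SE 0.10, limma adjusted p = 0.113), with no overlap. NUP98, an FG nucleoporin found on both sides of the pore, had 61.8, 64.4 and 60.2 FPKM in control and 54.1, 56.4 and 56.2 FPKM in Ras-induced cells, a separated but small difference (-0.16, SE 0.07, limma adjusted p = 0.157). It was called lower after quantile normalization (-0.26, limma adjusted p = 0.0387) and upper-quartile scaling (-0.27, limma adjusted p = 0.0394). For NUP62, 20.4% of the main transcript overlaps exons of neighbouring genes, among them ATF5 and IL4I1.

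On the cytoplasmic side NUP214 alone was altered. NUP88, which forms a subcomplex with NUP214, measured 54.5, 50.7 and 59.6 FPKM in control and 60.1, 62.8 and 73.3 FPKM in Ras-induced libraries, every value above the controls but not altered (log2 fold change 0.25, SE 0.10, limma adjusted p = 0.156). The ratio of NUP214 to NUP88 was 0.353, 0.407 and 0.344 in control and 0.254, 0.248 and 0.201 in Ras-induced cells, and its mean in Ras-induced cells was 0.637 times that in control. Since NUP214 lay wholly under and NUP88 wholly above the controls, this ratio had to separate. Exons of RABEP1 and RPAIN on the opposite strand cover 40.4% of the NUP88 transcript, so its FPKM may include their reads. RAE1, an mRNA export factor that binds NUP98 and also microtubules in mitosis, had 38.2, 40.9 and 41.9 FPKM and then 44.8, 47.3 and 47.1 FPKM (0.20, SE 0.07, limma adjusted p = 0.115). RANBP2, the SUMO ligase of the filaments, had 16.2 and 17.2 FPKM as means (log2 fold change 0.08). Its values are uncertain, since sequence shared with the RGPD gene family may affect them, which was not tested. AAAS, mutated in triple A syndrome, had 36.3 and 34.1 FPKM (-0.08).

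The nuclear basket had no altered gene among 3. TPR, the coiled-coil filament of the basket that binds checkpoint proteins, measured 28.2, 29.2 and 43.0 FPKM in control and 29.4, 24.0 and 30.3 FPKM in Ras-induced libraries, and its log2 fold change of -0.24 had the largest standard error of the set (0.18). Only control library 3 was above the highest Ras-induced library, and without it the log2 fold change was -0.046. NUP153 had means of 5.20 and 5.91 FPKM and NUP50, which speeds cargo release, 44.1 and 47.7 FPKM (0.15 and 0.11). In the membrane ring POM121 measured 17.5, 17.3 and 17.0 FPKM in control and 20.1, 13.4 and 17.7 FPKM in Ras-induced libraries (-0.03), a nearly constant control level beside a wide Ras-induced one. Its near-identical copy POM121C, with which it can share reads, had 21.1 and 24.3 FPKM and was not altered.

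Ratios within a library do not depend on its scaling. For 12 pairs of partner genes, picked after the values were known and therefore given without a test, 7 ratios did not overlap between the groups, 4 of them lower and 3 higher in Ras-induced cells. Among all 630 pairs of the 36 tested members 233 did not overlap, and because the 12 were picked with their values known, nothing is read from their count. NUP98 to RAE1 was 1.62, 1.57 and 1.44 in control and 1.21, 1.19 and 1.19 in Ras-induced cells. Since NUP98 lay wholly under and RAE1 wholly above the controls, this ratio had to separate. CSE1L to KPNA2 was 1.54, 1.70 and 1.85, and then 1.90, 2.00 and 2.12. The pairs share genes, so these ratios are not independent of each other. The ratio of NUP205 to NUP188, the paired scaffold proteins of the inner ring, averaged 0.869 and 0.838 and overlapped.

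Within both groups the libraries differed from each other in a way that moved with transcript length. In Ras-induced library 2, long members were low and short ones high, the Spearman correlation between transcript length and the deviation from the group mean being -0.53 over the 36 genes and -0.33 over 13007 tested genes with a length. In Ras-induced library 1 the same values were 0.44 and 0.32, and in Ras-induced library 3 they were 0.37 and 0.08. The control libraries gave smaller values over the members, -0.23, -0.13 and 0.23 for libraries 1, 2 and 3, and -0.04, -0.17 and 0.15 over the tested genes. The points share their libraries and genes, so no p is attached. For example, RANBP2 (transcript of 11708 bases) had 19.4, 14.1 and 18.1 FPKM in Ras-induced libraries 1, 2 and 3, whereas RANBP1 (1221 bases) had 188, 242 and 212 FPKM. Ras-induced library 2 also had the lowest relative depth. Without it, 3 members were altered, RANGAP1 and NUP214 lower and SEH1L higher, beside 11.1% of all tested genes. Across the groups, the 12 shortest members had a median log2 fold change of 0.12 and the 12 longest -0.04. Of the altered genes, NUP214 (7568 bases) is among the 12 longest, RANGAP1 (3828 bases) and NDC1 (4552 bases) fall between, and the part of transcript length in the differences was not tested.

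Other genes of the pathway are given beside the 16.7% of all tested genes that were altered. Of 6 further nucleoporins, NUP210L was under 1 FPKM and the other 5 (AHCTF1, NUP58, NUP42, POM121C and GLE1) were not altered, with log2 fold changes from 0.10 to 0.17. Of 21 further importins and exportins 20 were tested and 2 (10%) altered. IPO5, an importin for ribosomal proteins and histones, measured 113, 112 and 119 FPKM in control and 72.0, 74.9 and 77.2 FPKM in Ras-induced libraries, a log2 fold change of -0.61 (SE 0.07, limma adjusted p = 0.00405). IPO4, an importin of histones, measured 18.7, 22.2 and 24.9 FPKM and then 28.9, 37.3 and 33.6 FPKM, a log2 fold change of 0.58 (SE 0.14, limma adjusted p = 0.0348), and was not called after either rescaling, with no filter, or without control library 1 or 2 or Ras-induced library 2 or 3. Of 21 genes of mRNA export and the wider Ran cycle 2 (9.52%) were altered, THOC3 (log2 fold change 0.43, from 23.7 to 32.2 FPKM), a subunit of the THO complex, and MCM3AP (0.32, from 41.9 to 52.4 FPKM), the GANP scaffold of TREX-2, both higher. Neither was called after either rescaling or without control library 1 or 2 or Ras-induced library 1 or 3, and MCM3AP was also lost without Ras-induced library 2 and with no trend.

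Of 9 spindle factors taken as linked to RanGTP or importins, 5 were lower and none higher, where 5.67% of all tested genes were lower. For 9 of 9 every Ras-induced value lay under every control value, where 12.8% of all tested genes did so. The list was chosen with earlier results of these data known, so nothing is read from these counts. TPX2, which activates Aurora A when Ran frees it from importin alpha, measured 266, 247 and 250.3 FPKM in control and 171, 202 and 184 FPKM in Ras-induced libraries, a log2 fold change of -0.46 (SE 0.08, limma adjusted p = 0.0163). HMMR, DLGAP5, BIRC5 and CDCA8 had log2 fold changes of -0.60, -0.49, -0.37 and -0.28. With the replicate block CDCA8 was not called and NUSAP1 was, the count staying at 5. The count fell to 1 when control library 1 or 2, or Ras-induced library 1 or 3, was left out, and to 2 without Ras-induced library 2. In those fits 371 to 566 of all 13930 to 13964 tested genes were lower, against 793 of 13993 with every library. Other transcripts of mitosis moved with them. Of 10 mitosis markers 7 were lower, none was higher, and their summed level was 2020 to 2105 FPKM in control and 1592 to 1758 FPKM in Ras-induced libraries. Of 10 S phase markers 9 were tested and 6 were lower, and the summed level of all 10 was 218 to 252 FPKM in control and 140.4 to 155 FPKM in Ras-induced libraries. The summed level of the 37 transport genes was 2610 to 2712 FPKM in control and 2534 to 2747 FPKM in Ras-induced cells. The part of these cell cycle transcripts in the values of RANGAP1, NUP214 and NDC1 was not tested.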

How the data were processed

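The authors trimmed paired-end reads (Trim Galore 0.3.0, per the labels), aligned them to hg19 with TopHat2 using Ensembl build 73 junctions, and deposited FPKM per gene and library from Cufflinks, with no scaling between libraries given in the sources used here. Column names hold a group and 1, 2 or 3, so libraries could be tied to groups and not to single samples. Of 63129 listed genes, 120 with more than 6 values were left out, as were 18 unnamed columns and the deposited cuffdiff comparison, which holds group FPKM, fold changes and p-values.

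Genes averaging 1 FPKM or more entered a limma fit (version 3.58.1, R 4.3.3, lmFit and eBayes with a trend) of log2(FPKM + 1), two-sided, adjusted by Benjamini-Hochberg over 13993 genes, so fold changes of low genes are understated. Intervals of 95% are per gene and unadjusted. No count test was used. Relative depth is the commonest ratio between libraries of values of rare genes, and precision rests on 3 libraries a group. Coordinates, transcript lengths and overlaps are from GENCODE 44 on GRCh37, the build of hg19, using the Ensembl canonical transcript. Promoters are RefSeq windows. Tables were handled in Python 3.11.15 (pandas 2.3.3, scipy 1.17.1, numpy 2.4.6) and drawn with matplotlib 3.10.9. All 37 members are named, called genes and the most abundant in full, and up to 12 called genes of the other pathway lists. The members and lists were chosen with earlier results of these data known. FG repeats were not counted, for want of protein sequences here. Alternatives were other pseudocounts, filters, scalings, no trend, a replicate block, a stricter threshold and each library left out.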

Additional observations from a re-analysis of the deposited data

How the results depend on the processing

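The members had a median standard error of 0.095 on the log2 scale with 3 libraries a group, and a median absolute log2 fold change of 0.13. RANGAP1 was called under all 14 alternatives to the fit, NUP214 under 10 and NDC1 under 6, and at a threshold of 0.01 NUP214 and NDC1 were lost. Members altered went from 3 to 5, all lower, after quantile normalization and after upper-quartile scaling, and to 1 at an adjusted p at or under 0.01. The share of all tested genes altered went from 16.7% to 15.4%, 14.45% and 4.3% in the same order. Leaving out 1 library gave 1 to 3 altered, 0 to 1 higher and 1 to 2 lower, where 7.15% to 14% of all tested genes were altered. The median log2 fold change of the members was -0.10 after upper-quartile scaling and -0.01 to 0.04 with a library left out. Other importins and exportins altered fell from 2 to 1 with no filter, under both rescalings and at 0.01 (1 to 2 with a library left out). mRNA export and wider Ran cycle genes fell from 2 to 0 under both rescalings and at 0.01 (0 to 2). Spindle factors fell from 5 to 2 with a filter of 0.1 FPKM, no filter or no trend, and to 1 at 0.01 (1 to 4), and rose to 6 with a filter of 5 FPKM and under both rescalings. Of all tested genes 10.2% were altered with the filter of 0.1 FPKM, 5.17% with no filter, 14.4% with no trend and 21.4% with the filter of 5 FPKM. Looser filters adjust over more genes; the other causes were not tested.

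Members whose sign turned were all uncalled. After quantile normalization and after upper-quartile scaling, respectively, the log2 fold changes were -0.041 and -0.080 for SEC13, -0.010 and -0.0040 for NUP188, -0.056 and -0.053 for NUP205, -0.019 and -0.026 for RANBP2, -0.055 and -0.10 for XPO1, -0.053 and -0.097 for CSE1L, -0.066 and -0.106 for TNPO1, and -0.067 and -0.079 for RCC1. With a library left out the ranges were -0.133 to 0.029 for AAAS, -0.036 to 0.072 for CSE1L, -0.068 to 0.063 for NUP107, -0.050 to 0.052 for NUP43, -0.146 to 0.0015 for NUP93, -0.155 to 0.120 for POM121, -0.093 to 0.088 for RANBP1, -0.0096 to 0.207 for RANBP2, -0.053 to 0.092 for RCC1, -0.061 to 0.093 for SEC13, -0.061 to 0.124 for TNPO1, and -0.023 to 0.059 for XPO1.

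The column numbers were not taken to pair the libraries, because deviations of same-numbered ones correlated at -0.003, 0.043 and 0.048 across genes, under the level of 0.1 required. Control libraries 2 and 3 correlated best with their own number and control library 1 with Ras-induced library 2 (0.031), so a weak pairing was not excluded. With the replicate block 3 members and 2310 of all genes were altered, against 3 and 2336 without it, and no call of a member changed, while among the spindle factors CDCA8 was lost and NUSAP1 gained.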
